A study of Mus musculus with 16 samples.

Results

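The mitochondrial solute carriers are a family of membrane proteins, SLC25, that move metabolites, nucleotides, cofactors and ions across the inner mitochondrial membrane. They were taken here as every gene with an Entrez number whose symbol begins with Slc25a, which gave 47 of the 20101 genes measured. RNA was taken from the epididymal fat pad, a white adipose depot, when mice were 21 weeks old, and 16 RNA-seq libraries fell into 4 groups of 4. HFD KO and HFD WT mice ate a high-fat diet (HFD) with 60% fat from 5 weeks of age, and chow KO and chow WT mice stayed on chow with 5% fat. KO is the word of the sample titles, whose genotype field instead reads ApoA4 knockdown, and WT carries no named allele. The labels name no promoter, cell type or method behind the knockdown, and no strain or sex. Levels are in FPKM, fragments counted per length of transcript and per library size, and the 4 values of a group follow its replicate numbers.

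Carriers of this family share a fold of repeated units, each with a pair of membrane helices, and most swap a molecule in the matrix for another outside. Through them ADP enters and ATP leaves, citrate leaves for fatty acid synthesis in the cytosol, and reducing equivalents pass by the malate-aspartate shuttle. In white fat, citrate export and dicarboxylate exchange are tied to lipogenesis, which makes the family of interest when the pad is filled by a fatty diet. Slc25a17 belongs to the family but sits in peroxisomes, and Slc25a46 sits in the outer mitochondrial membrane.

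Apoa4 RNA, the check of the genotype labels, went against them. It was at 8.69, 9.63, 7.23 and 4.93 FPKM in HFD KO libraries against 0.29, 0, 0.08 and 0 in HFD WT libraries, and at 3.59, 1.96, 5.96 and 5.29 in chow KO libraries against 0.29, 0.25, 0.23 and 0.09 in chow WT libraries. KO-labelled and WT-labelled are therefore used as names of the labels throughout. The 12 adipocyte markers were all detected, with a summed level of 4387 to 16597 FPKM in HFD KO, 6941 to 21364 in HFD WT, 18845 to 44051 in chow KO and 35377 to 37764 in chow WT libraries. The 10 macrophage markers summed to 2751 to 8923 FPKM in HFD KO, 2039 to 9932 in HFD WT, 827 to 1011 in chow KO and 1019 to 1114 in chow WT libraries. RNA of epididymal genes, by contrast, was concentrated in a few libraries. Its summed level was 12039.5 FPKM for chow KO replicate 2, 5437 for HFD KO replicate 4, 343 for HFD KO replicate 2 and at most 40.2 for the other 13. Relative depth, read from the step size of the circular RNA entries, ran from 0.752 of the mean (chow KO replicate 4) to 1.42 of it (HFD KO replicate 4).

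Of the 47 carriers, 37 passed the filter of at least 1 FPKM in at least 4 of the 16 libraries and were tested. By mean level over all libraries the most abundant were the ADP/ATP carrier Slc25a5 at 222 FPKM, the phosphate carrier Slc25a3 at 176, the ADP/ATP carrier Slc25a4 at 135 and the citrate carrier Slc25a1 at 125. These 4 made up 49.2% to 61.1% of all carrier RNA in a library. The summed carrier level was 928, 1077, 1046 and 1196 FPKM in HFD KO libraries, against 1394, 1216, 1540.2 and 1439.6 in chow KO libraries. It was 1219, 1129, 985 and 1425 FPKM in HFD WT libraries, against 1179.7, 1178, 1205 and 1231 in chow WT libraries. The KO-labelled groups did not overlap and the HFD ones were lower, while the HFD WT libraries lay on both sides of the chow WT ones. Exons of Slc25a10, Slc25a11, Slc25a18, Slc25a21, Slc25a23, Slc25a25, Slc25a26, Slc25a33, Slc25a35, Slc25a37 and Slc25a46 overlap genes of the opposite strand, and since no source states whether counting used strand, reads of both genes cannot be told apart there.

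On HFD, the calcium-regulated ATP-Mg carrier Slc25a23, the ADP/ATP carrier Slc25a4, the iron carrier Slc25a28, the coenzyme A related carrier Slc25a16, the pyrimidine nucleotide carrier Slc25a36 and the branched-chain amino acid carrier Slc25a44 fell in mice of both genotype labels. The aspartate-glutamate carrier Slc25a12 and the ATP-Mg carrier Slc25a24 rose in both. The other aspartate-glutamate carrier Slc25a13 and the little known Slc25a43 were called higher in both as well, but they reached the filter through HFD libraries alone. With at least 1 FPKM in 8 HFD and 2 chow libraries for Slc25a13 and in 6 HFD and 0 chow libraries for Slc25a43, both were tested only because they were high on HFD, and their calls are given as a description. Slc25a29 and Slc25a47 reached the filter through chow libraries alone (8 chow and 2 HFD libraries each). In KO-labelled mice 6 of the 37 tested carriers were higher on HFD and 13 lower (limma, adjusted p under 0.05), or 16.2% and 35.1%, while 23.5% of all 12667 tested genes were higher and 15.3% lower (38.9% in all). The count of lower carriers was 8 without HFD KO replicate 3, and 7 when the KO-labelled groups were fitted alone. The share of all genes was not computed in those fits, so a loss in the carriers cannot be told apart from a loss over all genes. In WT-labelled mice 6 were higher and 7 lower, or 16.2% and 18.9%, against a background of 24.6% higher and 17.2% lower (41.9% in all). The split in WT-labelled mice moved to 7 higher and 5 lower when every library was scaled to the same sum, where the background was 28.7% higher and 14.4% lower. The 4 carriers higher in both labels stand against 17.5% of all tested genes that were, and the 6 lower in both against 10.1%. Of the 33 carriers that reached the filter within each diet, 4 were higher and 13 lower in KO-labelled mice, 4 higher and 6 lower in WT-labelled mice, and 2 higher and 6 lower in both. The share of all genes that reached the filter within each diet and were called was not computed. No carrier was called in opposite directions.

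The median log2 difference of the tested carriers, HFD minus chow, was -0.44 in KO-labelled mice and -0.10 in WT-labelled mice, while that of all tested genes was 0.08 and 0.06. With all 3 libraries that carried epididymal RNA left out, the same 6 carriers were higher in KO-labelled mice and 20 were lower, against a background of 30.4% higher and 20.4% lower. Slc25a25 lost its call there, while Slc25a1 (-1.58, adjusted p = 0.0277) and several carriers under the threshold with all libraries, named with their values below, gained one. Without the 2 of them with most such RNA the counts were 6 and 16, with 30.8% and 19.2% of all genes. HFD KO replicate 4, left out both times, also had the highest adipocyte sum (16597 FPKM) and lowest macrophage sum (2751 FPKM) of the HFD KO libraries. Its epididymal RNA and its cell marker levels cannot be told apart in these fits. HFD KO replicate 2, left out only in the fit without all 3, had the highest summed brown fat markers (144 FPKM, at most 39.7 in any other library). It also had the highest skeletal muscle sum of the KO-labelled libraries (76.5 FPKM). In that fit its epididymal RNA and these marker levels cannot be told apart either. With all 3 left out, only replicates 1 and 3 stood for HFD KO. The chow and HFD libraries did not overlap for 14 carriers in KO-labelled mice (28.7% of all genes) and for 14 in WT-labelled mice (46.9%). In bulk tissue, fewer cells of a type and less RNA per cell cannot be told apart, and on HFD all 10 macrophage markers were higher in both labels while 9 and 8 of the 12 adipocyte markers were lower in KO-labelled and WT-labelled mice. Their part in the carrier differences was not tested.

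**Figure D1:**
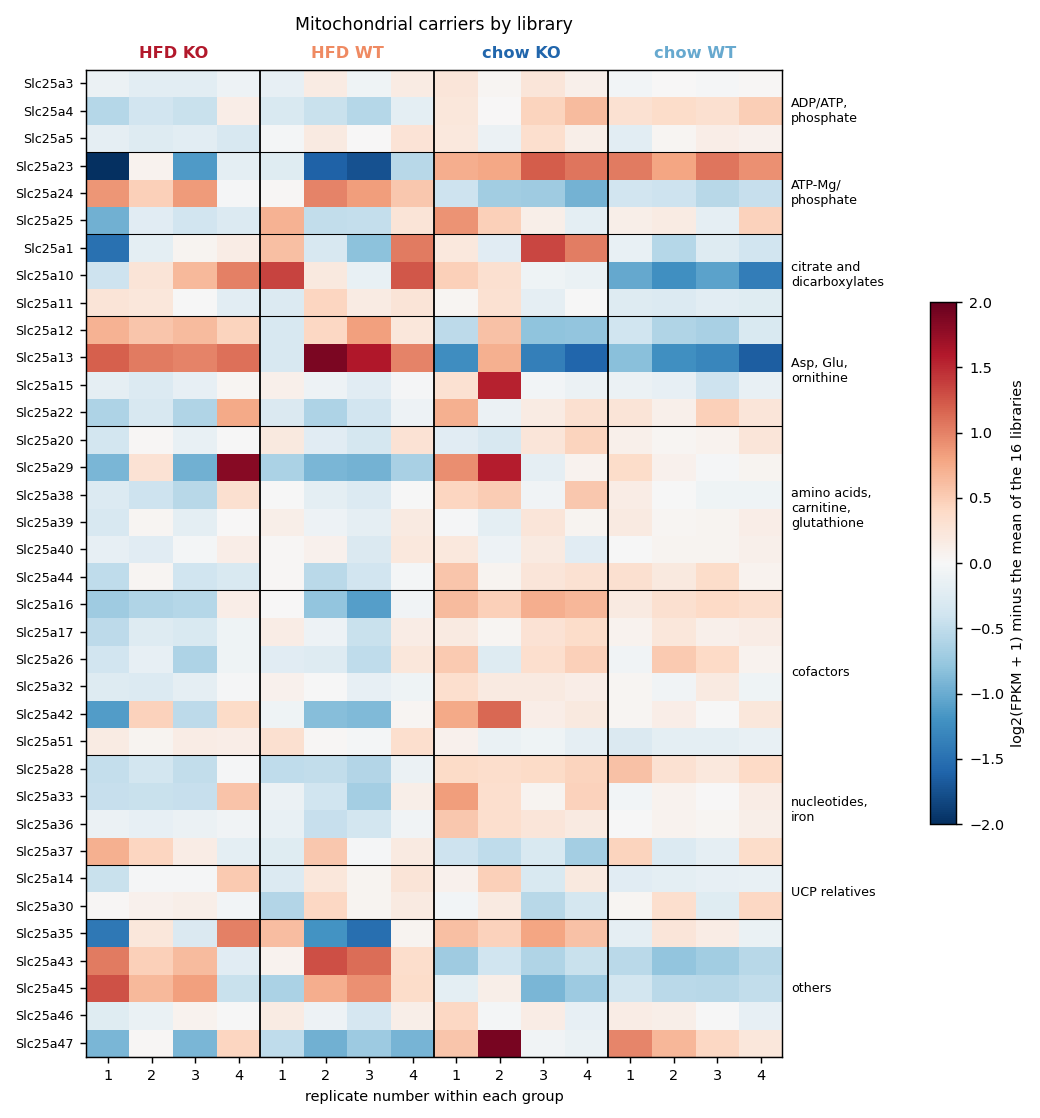
Each row is 1 of 36 of the tested carriers, grouped by role, and each column a library, in the order HFD KO, HFD WT, chow KO and chow WT. Colour is log2(FPKM + 1) minus the mean of the 16 libraries (red higher, blue lower, full colour at 2 or more), and Slc25a23, Slc25a28 and Slc25a16 are blue in most HFD columns and red in chow columns, with Slc25a24, Slc25a13 and Slc25a43 mostly the other way round (Slc25a13 is red in chow KO replicate 2).

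The ADP/ATP and phosphate carriers supply oxidative phosphorylation, and their summed level averaged 448 ± 22.5 FPKM in HFD KO against 604 ± 63.9 in chow KO libraries, and 515 ± 50.5 FPKM in HFD WT against 565 ± 32.2 in chow WT libraries (SD, n = 4 each). Slc25a4 (ANT1) was at 87.6, 99.5, 95.3 and 143 FPKM in HFD KO libraries, against 153, 132, 177 and 202 in chow KO libraries. It was at 105, 94.9, 87.7 and 114 FPKM in HFD WT libraries, against 161, 169, 163 and 184 in chow WT libraries. HFD values were the lower ones in both labels, without overlap in WT-labelled mice and with HFD KO replicate 4 above the lowest chow KO library. Slc25a4 fell in KO-labelled mice (log2 difference -0.64, SE 0.16, adjusted p = 0.00652) and in WT-labelled mice (log2 difference -0.75, SE 0.16, adjusted p = 0.00219). Slc25a4 is the main ADP/ATP carrier of skeletal muscle. The 6 muscle markers summed to 5.91 to 13.8 FPKM in HFD WT against 106 to 264 in chow WT libraries, and to 5.16 to 76.5 FPKM in HFD KO against 3.02 to 28.9 in chow KO libraries. Their part in the Slc25a4 difference was not tested.

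Slc25a5 (ANT2), the ADP/ATP carrier of most dividing cells, was at 193, 184, 189 and 176 FPKM in HFD KO libraries, against 254, 202, 277 and 238 in chow KO libraries. In HFD WT libraries it was at 213, 248, 221 and 266 FPKM, against 191, 226, 241 and 234 in chow WT libraries. The 4 HFD KO libraries lay below all chow KO libraries, and the WT-labelled groups overlapped. Slc25a5 fell in KO-labelled mice (log2 difference -0.38, SE 0.13, adjusted p = 0.0278) and had a log2 difference of 0.09 in WT-labelled mice (adjusted p = 0.603). The KO call was lost without any 1 of HFD KO replicates 2 and 3 and chow KO replicates 1 and 3, where the largest adjusted p was 0.0871.

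The phosphate carrier Slc25a3, which brings in the phosphate used by ATP synthase, was at 161, 151, 151 and 162 FPKM in HFD KO libraries, against 206, 179, 207 and 188 in chow KO libraries. Its level was 156, 195, 164 and 196 FPKM in HFD WT libraries, against 168, 175, 171 and 178 in chow WT libraries. The KO-labelled groups did not overlap, and the WT-labelled groups did. The fall in KO-labelled mice was small (log2 difference -0.32, SE 0.11, adjusted p = 0.028), and the call was lost without any 1 of 4 libraries, the same as for Slc25a5, with adjusted p up to 0.0733. In WT-labelled mice the log2 difference was 0.03 (adjusted p = 0.828) and turned negative under median-of-ratios and quantile scaling. Slc25a4 RNA relative to Slc25a5 RNA was 0.493, 0.383, 0.397 and 0.427 in HFD WT libraries, against 0.843, 0.746, 0.674 and 0.787 in chow WT libraries. In HFD KO libraries the ratio was 0.453, 0.542, 0.505 and 0.811, against 0.602, 0.651, 0.64 and 0.848 in chow KO libraries, where the groups overlapped. The germ-cell ADP/ATP carrier Slc25a31 was at most 0.16 FPKM and was not tested.

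The ATP-Mg/phosphate carriers, also called SCaMC, set the adenine nucleotide content of the matrix, and most of them are switched on by calcium. Slc25a23 and Slc25a24, which belong to this group, moved in opposite directions on HFD. The start-site windows of both genes, 300 bases from 250 before to 50 after the annotated start, are shown because of that contrast (RefSeq, GRCm38.p6). Capitals mark CCAAT or its reverse complement ATTGG. The Slc25a23 window is chr17:57059814-57060113 on the minus strand and holds 1 match, and the Slc25a24 window is chr3:109122899-109123198 on the plus strand and holds 0.
Slc25a23: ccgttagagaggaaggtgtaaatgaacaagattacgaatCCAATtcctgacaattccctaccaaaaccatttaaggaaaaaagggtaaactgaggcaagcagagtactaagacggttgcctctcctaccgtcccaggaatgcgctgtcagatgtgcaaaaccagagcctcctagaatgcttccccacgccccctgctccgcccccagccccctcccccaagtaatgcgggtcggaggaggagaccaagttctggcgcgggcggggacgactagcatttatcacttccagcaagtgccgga
Slc25a24: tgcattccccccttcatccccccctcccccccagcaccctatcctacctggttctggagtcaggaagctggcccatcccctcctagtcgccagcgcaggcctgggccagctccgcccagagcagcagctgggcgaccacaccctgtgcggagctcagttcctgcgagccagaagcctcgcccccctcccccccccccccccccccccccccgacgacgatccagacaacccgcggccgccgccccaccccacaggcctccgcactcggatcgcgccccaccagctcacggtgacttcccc

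Slc25a23 (SCaMC-3) was at 5.17, 28.8, 11.97 and 23.7 FPKM in HFD KO libraries, against 45.7, 47.5, 64.7 and 58.3 in chow KO libraries. It was at 23.1, 8.24, 7.49 and 18.3 FPKM in HFD WT libraries, against 57.4, 47.99, 58.8 and 52.3 in chow WT libraries. Every HFD library lay below every chow library, and the HFD libraries of each label spread widely. Slc25a23 fell in KO-labelled mice (log2 difference -1.81, SE 0.42, adjusted p = 0.00411) and in WT-labelled mice (log2 difference -1.99, SE 0.42, adjusted p = 0.00188), and its call held in every alternative fit. Without the 3 libraries with epididymal RNA the log2 difference in KO-labelled mice was -2.66.

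Slc25a24 (SCaMC-1) was at 29.9, 22.3, 29.3 and 15.5 FPKM in HFD KO libraries, against 11.5, 9.4, 9.27 and 7.68 in chow KO libraries. In HFD WT libraries it was at 16.1, 32.5, 28.8 and 23.3 FPKM, against 11.8, 11.6, 10.5 and 11.1 in chow WT libraries. Every HFD library lay above every chow library. Slc25a24 rose in KO-labelled mice (log2 difference 1.24, SE 0.21, adjusted p = 0.000768) and in WT-labelled mice (log2 difference 1.05, SE 0.21, adjusted p = 0.00151). The ratio of Slc25a23 RNA to Slc25a24 RNA was 0.173, 1.29, 0.409 and 1.53 in HFD KO libraries, against 3.96 to 7.595 in chow KO libraries. It was 1.43, 0.253, 0.26 and 0.786 in HFD WT libraries, against 4.15 to 5.62 in chow WT libraries. Slc25a24 RNA was the more abundant in 5 of the 8 HFD libraries and in 0 of the 8 chow libraries.

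Slc25a25 (SCaMC-2) was at 4.81, 8.7, 7.65 and 8.42 FPKM in HFD KO libraries, against 20.04, 14.8, 11.3 and 8.94 in chow KO libraries. It was at 17.3, 7.02, 7.16 and 12.6 FPKM in HFD WT libraries, against 11.3, 11.6, 8.96 and 14.7 in chow WT libraries. The KO-labelled groups were separated by a narrow gap, and the WT-labelled groups overlapped. The fall in KO-labelled mice (log2 difference -0.79, SE 0.28, adjusted p = 0.0393) was lost without any 1 of 5 of the 8 KO-labelled libraries, with adjusted p up to 0.126, and in 6 other alternative fits, among them the fit without the 3 libraries with epididymal RNA (-0.95, adjusted p = 0.0544). Slc25a25 had a log2 difference of -0.14 in WT-labelled mice (adjusted p = 0.712). Slc25a41, the fourth of the group, was at most 0.23 FPKM and was not tested.

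**Figure D2:**
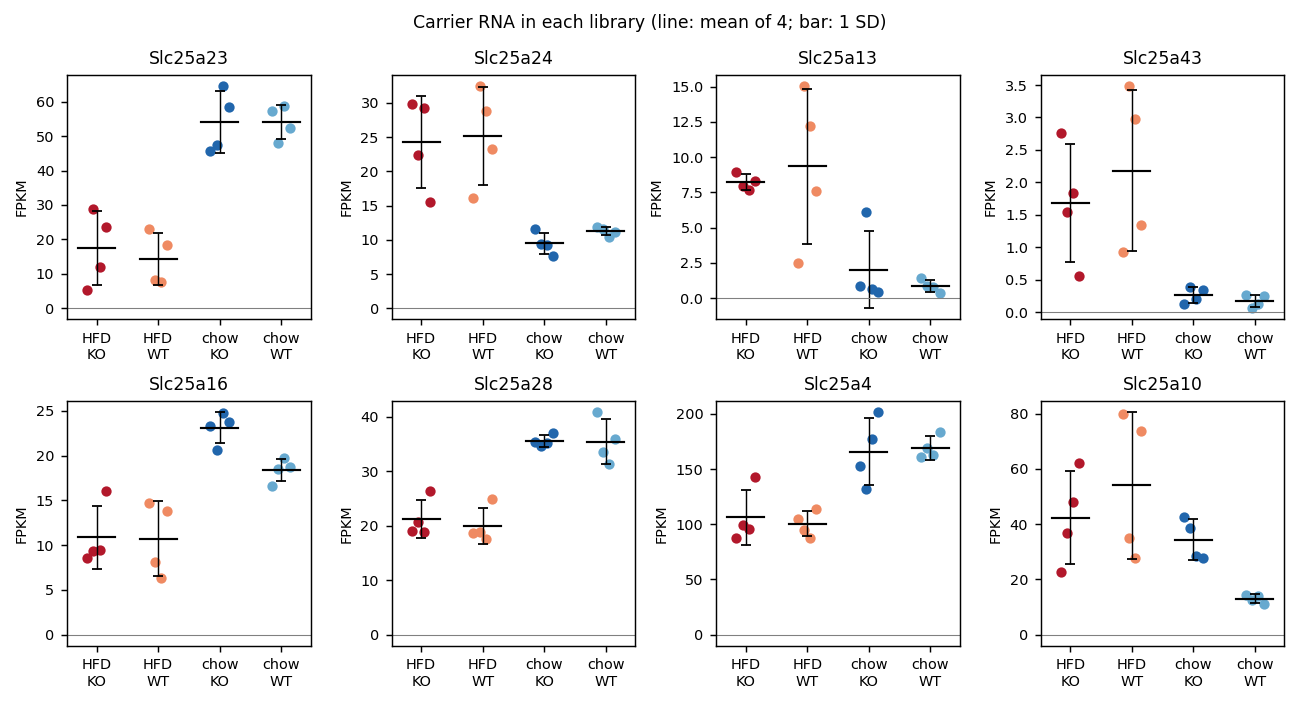
FPKM of 8 carriers in every library, in the order HFD KO, HFD WT, chow KO and chow WT, with points for libraries, a line for the mean of 4 and a bar of 1 SD. Slc25a23, Slc25a16, Slc25a28 and Slc25a4 are lower on HFD, Slc25a24, Slc25a13 and Slc25a43 are higher, and the 4 chow WT libraries of Slc25a10 sit at 11.04 to 14.5 FPKM, below all others.

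Among the carriers of citrate and dicarboxylates, the dicarboxylate carrier Slc25a10, which exchanges malate or succinate for phosphate and is abundant in white fat, stood apart in chow WT libraries. Its start-site window at chr11:120491587-120491886 on the plus strand (RefSeq, GRCm38.p6) is shown for this gene, with 1 ATTGG in capitals.
Slc25a10: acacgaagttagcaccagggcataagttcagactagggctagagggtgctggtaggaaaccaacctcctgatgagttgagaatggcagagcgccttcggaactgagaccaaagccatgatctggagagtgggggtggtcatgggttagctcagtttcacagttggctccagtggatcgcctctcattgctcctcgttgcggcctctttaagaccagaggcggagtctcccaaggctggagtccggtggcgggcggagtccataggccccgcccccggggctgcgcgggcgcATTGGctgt
Slc25a10 was at 79.7, 34.9, 27.6 and 73.9 FPKM in HFD WT libraries, against 14.5, 12.4, 13.98 and 11.04 in chow WT libraries. It was at 22.5, 36.6, 48.2 and 62.1 FPKM in HFD KO libraries, against 42.8, 38.5, 28.5 and 27.7 in chow KO libraries. The chow WT libraries lay below all 12 others, which Slc25a10 alone among the 37 tested carriers showed, and the KO-labelled groups overlapped. How many of all genes had the chow WT libraries lowest was not computed, and Timm8a1, described below, had them lowest too. The pattern is therefore not shown to be particular to Slc25a10. Slc25a10 rose on HFD in WT-labelled mice (log2 difference 1.84, SE 0.33, adjusted p = 0.000699) and had a log2 difference of 0.23 in KO-labelled mice (adjusted p = 0.616).

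The citrate carrier Slc25a1, which exports the carbon used for fatty acids, was at 38.5, 96.1, 115 and 122 FPKM in HFD KO libraries, against 128, 93.9, 280.2 and 226 in chow KO libraries. It was at 168, 87.95, 62.2 and 228 FPKM in HFD WT libraries, against 99.1, 73.9, 91.8 and 84.3 in chow WT libraries. Values spread widely in 3 of the 4 groups, chow WT being the narrow one, and groups overlapped in both labels. Slc25a1 did not pass the threshold in KO-labelled mice (log2 difference -0.96, SE 0.44, adjusted p = 0.0955) or in WT-labelled mice (log2 difference 0.47, SE 0.44, adjusted p = 0.414). Without chow KO replicate 2, the library with most epididymal RNA, the difference in KO-labelled mice was -1.23 with adjusted p = 0.0378.

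The oxoglutarate carrier Slc25a11, a partner of the aspartate-glutamate carriers in the malate-aspartate shuttle, was at 47.3, 46.3, 39.2 and 33.9 FPKM in HFD KO libraries, against 40.5, 48.8, 34.7 and 39.1 in chow KO libraries. It was at 32.5, 53.2, 44.5 and 47.2 FPKM in HFD WT libraries, against 32.9, 32.5, 34.03 and 33.2 in chow WT libraries. Both labels overlapped, in WT-labelled mice through HFD WT replicate 1 alone. The log2 difference was 0.03 in KO-labelled mice (adjusted p = 0.897), negative under median-of-ratios and quantile scaling, and 0.39 in WT-labelled mice (adjusted p = 0.0505). Without HFD WT replicate 1 the difference in WT-labelled mice was 0.53 with adjusted p = 0.00588. Slc25a21, the oxodicarboxylate carrier, reached 2.65 FPKM in chow KO replicate 2 and at most 0.37 elsewhere, and was not tested.

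The aspartate-glutamate carriers send aspartate out of the matrix in return for glutamate and a proton. Slc25a13 (citrin), the form of liver and many other tissues, had the largest positive difference among the tested carriers in both labels. Its window at chr6:6217124-6217423 on the minus strand (RefSeq, GRCm38.p6) is shown for that reason, with 1 CCAAT and 1 CACGTG in capitals.
Slc25a13: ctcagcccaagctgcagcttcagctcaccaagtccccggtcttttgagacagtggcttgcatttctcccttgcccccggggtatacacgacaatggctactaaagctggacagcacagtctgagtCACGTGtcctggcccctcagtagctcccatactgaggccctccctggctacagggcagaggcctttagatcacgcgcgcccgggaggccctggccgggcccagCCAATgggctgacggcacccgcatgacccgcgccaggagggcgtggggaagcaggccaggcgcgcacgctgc
Slc25a13 was at 8.98, 7.98, 7.67 and 8.34 FPKM in HFD KO libraries, against 0.85, 6.12, 0.69 and 0.45 in chow KO libraries. It was at 2.49, 15.1, 12.2 and 7.63 FPKM in HFD WT libraries, against 1.44, 0.87, 0.77 and 0.39 in chow WT libraries. Every HFD library lay above the chow libraries of its own label, and chow KO replicate 2 stood far above the other chow libraries. Slc25a13 was called higher in KO-labelled mice (log2 difference 1.95, SE 0.48, adjusted p = 0.00562) and in WT-labelled mice (log2 difference 2.29, SE 0.48, adjusted p = 0.0018), and over the alternative fits the difference ran between 1.71 and 2.72 in KO-labelled mice and between 2.01 and 3.13 in WT-labelled mice. These differences understate the fold of low genes, since 1 was added to each FPKM before the log.

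Slc25a12 (aralar), the form of brain and muscle, was at 11.1, 10.1, 10.6 and 9.25 FPKM in HFD KO libraries, against 4.23, 10.3, 3.28 and 3.36 in chow KO libraries. It was at 5.03, 8.95, 12.3 and 7.81 FPKM in HFD WT libraries, against 4.67, 3.94, 3.76 and 5.05 in chow WT libraries. The HFD values were mostly the higher ones, with overlap through chow KO replicate 2 and HFD WT replicate 1. Slc25a12 rose in KO-labelled mice (log2 difference 0.96, SE 0.27, adjusted p = 0.0129) and in WT-labelled mice (log2 difference 0.78, SE 0.27, adjusted p = 0.0333), where the call was lost without any 1 of 6 of the 8 WT-labelled libraries, with adjusted p up to 0.115. Without the 3 libraries with epididymal RNA the difference in KO-labelled mice was 1.36. Slc25a12 RNA relative to Slc25a13 RNA was 1.24, 1.26, 1.38 and 1.11 in HFD KO libraries, against 4.98, 1.68, 4.75 and 7.47 in chow KO libraries. The ratio was 2.02, 0.594, 1.01 and 1.02 in HFD WT libraries, against 3.24, 4.53, 4.88 and 12.9 in chow WT libraries.

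The remaining carriers of glutamate and ornithine did not pass the threshold with all libraries in the fit. The glutamate carrier Slc25a22 had log2 differences of -0.46 in KO-labelled mice (adjusted p = 0.168) and -0.62 in WT-labelled mice (adjusted p = 0.0647), and was highest in HFD KO replicate 4 at 25.8 FPKM. The call of Slc25a22 depended on the libraries fitted. Its difference in KO-labelled mice was -0.91 (adjusted p = 0.000794) without the 2 libraries with most epididymal RNA and -1.002 (adjusted p = 0.000857) without all 3. The ornithine carrier Slc25a15 of the urea cycle had differences of -0.56 and 0.15 in the same order, and was at 12.8 FPKM in chow KO replicate 2 and at most 4.92 in the other 15 libraries. Its difference in KO-labelled mice was -0.25 (adjusted p = 0.149) without the 2 libraries with most epididymal RNA and -0.22 (adjusted p = 0.267) without all 3. Slc25a18, another glutamate carrier, and Slc25a2, another ornithine carrier, were not tested, with highest values of 1.53 and 0.36 FPKM, the first of them in chow KO replicate 2.

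**Figure D3:**
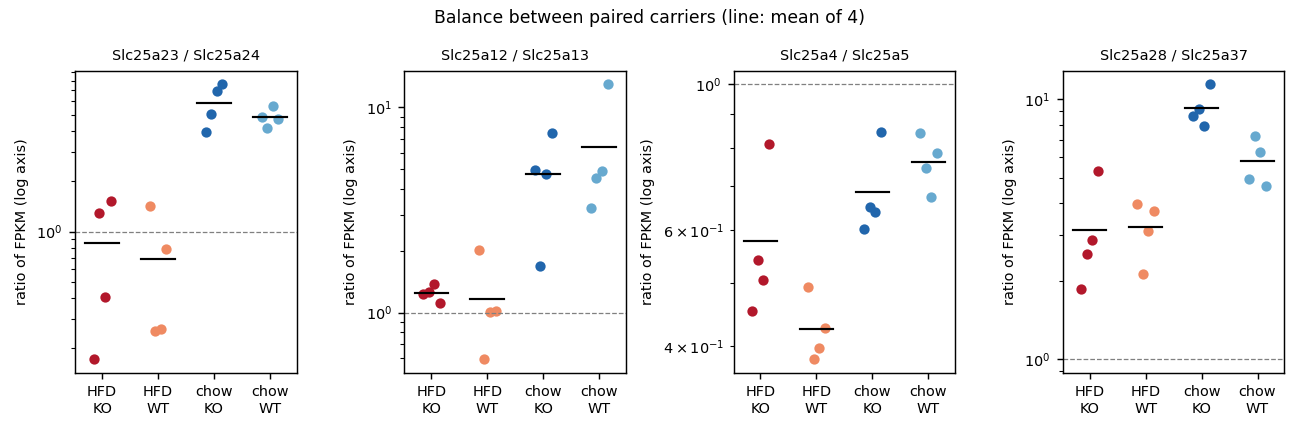
Ratios of FPKM between carriers of like function in every library on log axes, with both HFD groups left of both chow groups and a line at the mean of 4. The ratio Slc25a23/Slc25a24 lies between 0.173 and 1.53 in HFD libraries and between 3.96 and 7.60 in chow libraries, and Slc25a28/Slc25a37 is lower on HFD within each label.

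Of 6 tested carriers of other amino acids, carnitine and glutathione, 2 fell in KO-labelled and 1 in WT-labelled mice. Of all tested genes 15.3% and 17.2% were lower in the same order, and counts this small are not set apart from those shares. Slc25a44, which carries branched-chain amino acids in brown fat mitochondria, was at 11.7, 17.6, 12.6 and 13.7 FPKM in HFD KO libraries, against 25.5, 17.7, 20.3 and 21.2 in chow KO libraries. It was at 17.2, 11.4, 12.7 and 16.6 FPKM in HFD WT libraries, against 21.6, 19.5, 22.2 and 17.8 in chow WT libraries. No HFD library reached the lowest chow library. Slc25a44 fell in KO-labelled mice (log2 difference -0.58, SE 0.16, adjusted p = 0.00922) and in WT-labelled mice (log2 difference -0.47, SE 0.16, adjusted p = 0.024), where the call was lost under scaling to the same sum and without any 1 of 4 libraries, with adjusted p up to 0.0852.

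The carnitine-acylcarnitine carrier Slc25a20, which brings fatty acids in for oxidation, was at 26.9, 35.5, 31.4 and 34.6 FPKM in HFD KO libraries, against 29.6, 27.7, 41.7 and 47.9 in chow KO libraries. It was at 40.03, 29.8, 27.2 and 42.96 FPKM in HFD WT libraries, against 37.5, 36.1, 36.5 and 41.5 in chow WT libraries. The groups overlapped in both labels. The log2 difference was -0.16 in KO-labelled mice (adjusted p = 0.502) and -0.14 in WT-labelled mice (adjusted p = 0.573). The glycine carrier Slc25a38, used in haem synthesis, fell in KO-labelled mice (log2 difference -0.58, SE 0.18, adjusted p = 0.0183) and had a log2 difference of -0.12 in WT-labelled mice (adjusted p = 0.622). The glutathione carrier Slc25a39, at 72.1 to 107 FPKM in all libraries, and its relative Slc25a40 had differences between -0.13 and -0.04 in both labels. The basic amino acid carrier Slc25a29 did not pass the threshold in either label (-0.54 in KO-labelled and -0.91 in WT-labelled mice) and was highest in the libraries with epididymal RNA, with 8.91 FPKM for HFD KO replicate 4 and 7.38 for chow KO replicate 2. Without the 3 libraries with epididymal RNA its difference in KO-labelled mice was -1.21 (adjusted p = 0.00251), and without the 2 with most of it -0.80 (adjusted p = 0.0527).

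Among the carriers of cofactors, Slc25a16, which is tied to coenzyme A, was at 8.53, 9.3, 9.5 and 16.1 FPKM in HFD KO libraries, against 23.3, 20.7, 24.8 and 23.7 in chow KO libraries. It was at 14.7, 8.06, 6.29 and 13.8 FPKM in HFD WT libraries, against 16.7, 18.5, 19.7 and 18.7 in chow WT libraries. Every HFD library lay below every chow library. Slc25a16 fell in KO-labelled mice (log2 difference -1.06, SE 0.23, adjusted p = 0.00248) and in WT-labelled mice (log2 difference -0.80, SE 0.23, adjusted p = 0.0116), and the call held in every alternative fit.

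The NAD carrier Slc25a51 was at 41.3, 33.5, 31.9 and 42.05 FPKM in HFD WT libraries, against 26.7, 28.8, 28.8 and 29.7 in chow WT libraries. It was at 37.3, 34.4, 36.9 and 36.2 FPKM in HFD KO libraries, against 35.3, 29.9, 30.99 and 29.01 in chow KO libraries. Every HFD WT library was above every chow WT library, and the KO-labelled groups overlapped through HFD KO replicate 2 and chow KO replicate 1. Slc25a51 rose in WT-labelled mice (log2 difference 0.36, SE 0.10, adjusted p = 0.0122), a call lost under quantile scaling, and had a log2 difference of 0.21 in KO-labelled mice (adjusted p = 0.131).

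Slc25a17, the peroxisomal carrier of coenzyme A, FAD and NAD, was at 15.8, 19.3, 18.5 and 21.9 FPKM in HFD KO libraries, against 26.4, 23.9, 28.7 and 30.2 in chow KO libraries. It was at 25.8, 21.6, 16.9 and 25.8 FPKM in HFD WT libraries, against 24.3, 27.4, 24.9 and 25.7 in chow WT libraries. The KO-labelled groups did not overlap and the WT-labelled groups did. Slc25a17 fell in KO-labelled mice (log2 difference -0.51, SE 0.14, adjusted p = 0.00865) and had a log2 difference of -0.19 in WT-labelled mice (adjusted p = 0.267). Also in KO-labelled mice, the S-adenosylmethionine carrier Slc25a26 fell (log2 difference -0.58, SE 0.20, adjusted p = 0.0352), as did the folate and FAD carrier Slc25a32 (log2 difference -0.39, SE 0.10, adjusted p = 0.00799). In WT-labelled mice their log2 differences were -0.42 (adjusted p = 0.108) and -0.06 (adjusted p = 0.669). The coenzyme A carrier Slc25a42 did not pass the threshold in either label, with a difference of -0.76 in KO-labelled mice and -0.54 in WT-labelled mice. Without the 3 libraries with epididymal RNA, Slc25a42 passed in KO-labelled mice at -1.19 (adjusted p = 0.00568) and Slc25a26 was at -0.94 there, while without the 2 with most such RNA Slc25a42 was at -0.76 (adjusted p = 0.084).

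The mitoferrins Slc25a28 and Slc25a37 bring iron into the matrix, Slc25a28 in most tissues and Slc25a37 in red cell precursors above all. Slc25a28 had the smallest adjusted p of the family in WT-labelled mice, and its window at chr19:43674832-43675131 on the minus strand (RefSeq, GRCm38.p6) is shown for that reason, with 3 CCAAT in capitals.
Slc25a28: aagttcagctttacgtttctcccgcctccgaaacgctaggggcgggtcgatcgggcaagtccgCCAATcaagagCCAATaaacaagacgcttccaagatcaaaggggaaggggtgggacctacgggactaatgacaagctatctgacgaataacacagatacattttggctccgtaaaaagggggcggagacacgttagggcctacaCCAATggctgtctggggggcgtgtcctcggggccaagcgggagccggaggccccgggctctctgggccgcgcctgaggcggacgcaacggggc
Slc25a28 was at 18.99, 20.6, 18.9 and 26.3 FPKM in HFD KO libraries, against 35.3, 34.6, 35.2 and 37.05 in chow KO libraries. It was at 18.6, 18.9, 17.5 and 24.8 FPKM in HFD WT libraries, against 40.9, 33.5, 31.2 and 35.9 in chow WT libraries. Every HFD library lay below every chow library. Slc25a28 fell in KO-labelled mice (log2 difference -0.73, SE 0.13, adjusted p = 0.000868) and in WT-labelled mice (log2 difference -0.80, SE 0.13, adjusted p = 0.000327), and the call held in every alternative fit.

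Slc25a37 was at 10.2, 8.15, 6.55 and 4.95 FPKM in HFD KO libraries, against 4.08, 3.77, 4.47 and 3.24 in chow KO libraries. It was at 4.72, 8.85, 5.65 and 6.67 FPKM in HFD WT libraries, against 8.28, 4.62, 5 and 7.75 in chow WT libraries. The KO-labelled groups did not overlap, and the WT-labelled groups did. Slc25a37 rose in KO-labelled mice (log2 difference 0.76, SE 0.22, adjusted p = 0.0139), a call lost without HFD KO replicate 1 (adjusted p = 0.0521), and had a log2 difference of 0.02 in WT-labelled mice (adjusted p = 0.958), negative under median-of-ratios and quantile scaling. Red blood cell markers summed to 544, 1766, 714 and 2059 FPKM in HFD KO libraries and to 1541, 828, 2017 and 901 in chow KO libraries. They summed to 2105, 3655, 341 and 2633 FPKM in HFD WT libraries and to 7890, 3024, 3128 and 6032 in chow WT libraries. Slc25a37 ran in the order of these sums within chow WT alone. In HFD KO libraries its highest level was in the library with the lowest sum. The part of red blood cells in the Slc25a37 level was not tested. The ratio of Slc25a28 to Slc25a37 was 1.87 to 5.31 in HFD KO libraries against 7.89 to 11.4 in chow KO libraries. It was 2.13 to 3.94 in HFD WT libraries against 4.63 to 7.26 in chow WT libraries. Of the pyrimidine nucleotide carriers, Slc25a36 fell in KO-labelled mice (log2 difference -0.44, SE 0.10, adjusted p = 0.0047) and in WT-labelled mice (log2 difference -0.32, SE 0.10, adjusted p = 0.0226), and Slc25a33 had log2 differences of -0.62 and -0.32 in the same order, with adjusted p = 0.0501 and 0.303. Slc25a33 passed in KO-labelled mice without the 2 libraries with most epididymal RNA (-0.90, adjusted p = 0.00313) and without all 3 (-0.91, adjusted p = 0.00746).

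The relatives of the uncoupling proteins Slc25a14 and Slc25a30 did not pass the threshold in either label, with differences between -0.12 and 0.25, and Slc25a27 was not tested, at no more than 0.83 FPKM. Of the little known carriers, Slc25a43 was at 2.76, 1.55, 1.84 and 0.56 FPKM in HFD KO libraries, against 0.12, 0.39, 0.21 and 0.34 in chow KO libraries. It was at 0.92, 3.49, 2.98 and 1.34 FPKM in HFD WT libraries, against 0.26, 0.06, 0.13 and 0.25 in chow WT libraries. All 8 chow libraries were below all 8 HFD libraries, and no chow level exceeded 0.39 FPKM. Slc25a43, which passed the filter only through the HFD libraries where it is high, was called higher in KO-labelled mice (log2 difference 1.02, SE 0.28, adjusted p = 0.0102) and in WT-labelled mice (log2 difference 1.35, SE 0.28, adjusted p = 0.00161). With 0.1 in place of 1 added to each FPKM, the differences of Slc25a43 were 2.17 and 2.94 in the same order. Slc25a45 rose in KO-labelled mice (log2 difference 1.01, SE 0.36, adjusted p = 0.0392) and had a log2 difference of 0.83 in WT-labelled mice (adjusted p = 0.0783). Without the 3 libraries with epididymal RNA its difference in KO-labelled mice was 1.67.

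Slc25a47, a carrier found mainly in liver, was at 0.62, 0.18, 0.4 and 0.21 FPKM in HFD WT libraries, against 3.52, 2.64, 2.08 and 1.69 in chow WT libraries. It was at 0.22, 1.33, 0.22 and 2.1 FPKM in HFD KO libraries, against 2.38, 7.56, 1.2 and 1.1 in chow KO libraries. The WT-labelled groups did not overlap, the KO-labelled groups did, and chow KO replicate 2 was the highest library. Slc25a47, which passed the filter only through the chow libraries where it is high, was called lower in WT-labelled mice (log2 difference -1.35, SE 0.40, adjusted p = 0.0144) and had a log2 difference of -0.91 in KO-labelled mice (adjusted p = 0.0841). With 0.1 added to each FPKM the difference in WT-labelled mice was -2.57, and the KO-labelled one passed the threshold in 5 other fits, without all 3 libraries with epididymal RNA at -1.03 (adjusted p = 0.00486). The 5 liver markers summed to 76.5, 1.65, 1.86 and 4.22 FPKM in HFD WT libraries and to 239, 90.8, 67.7 and 32.5 FPKM in chow WT libraries, with 4 of the 5 lower on HFD, and their part in the Slc25a47 difference was not tested. Slc25a35 and Slc25a46 did not pass the threshold in either label, with differences of -0.73 and -0.17 in KO-labelled and -0.53 and -0.06 in WT-labelled mice. Without the 3 libraries with epididymal RNA, Slc25a35 passed in KO-labelled mice at -1.52 (adjusted p = 0.0281), and without the 2 with most of it the difference was -1.16 (adjusted p = 0.0651). The other members under the filter were Slc25a34, Slc25a48, Slc25a53 and Slc25a54, with highest values of 1.58, 3.66, 0.55 and 0.06 FPKM. Slc25a34 peaked in HFD KO replicate 2 and Slc25a48 in HFD KO replicate 4, both among the libraries with epididymal RNA. In chow KO replicate 2, which held most such RNA, they were at 0.69 and 0.15 FPKM. HFD KO replicate 2 also had the highest summed brown fat markers (144 FPKM). The source of either RNA was not tested.

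**Figure D4:**
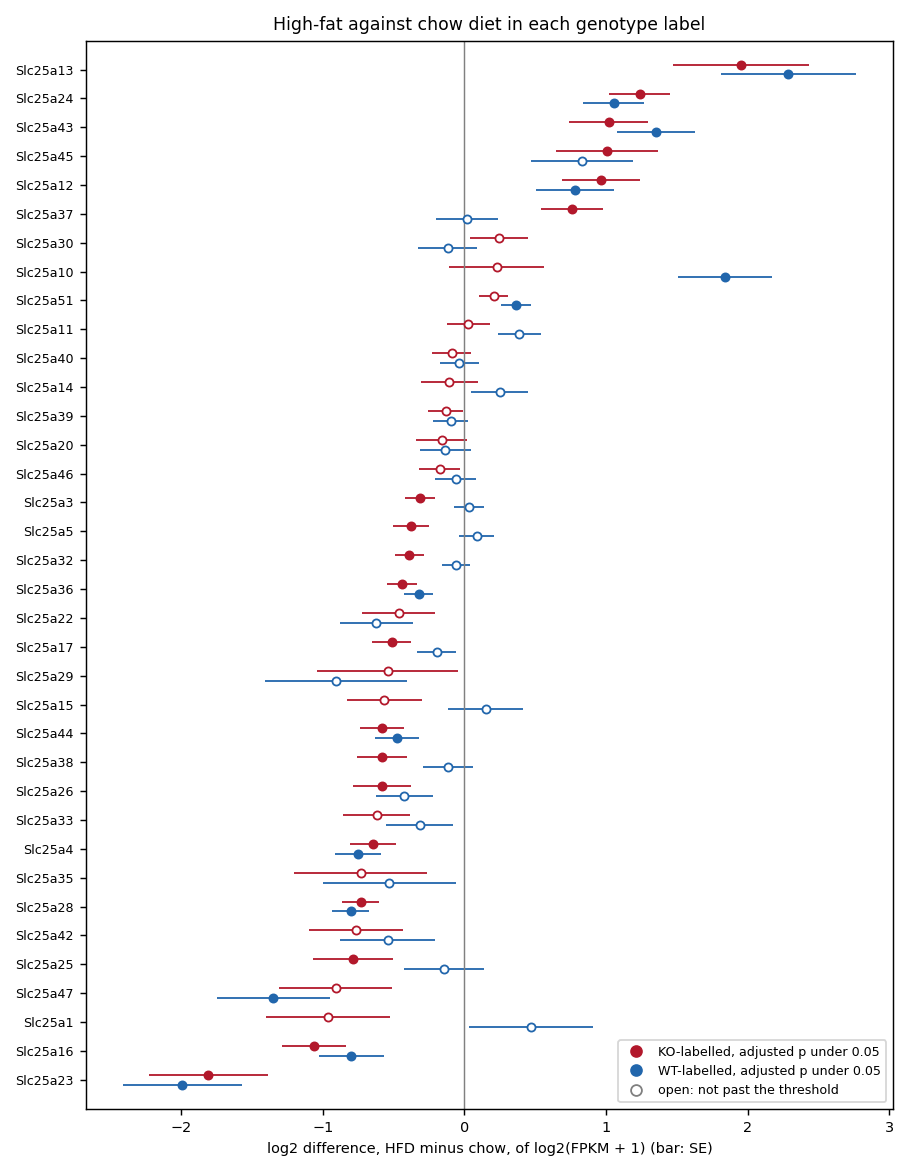
Log2 difference, HFD minus chow, of 36 of the tested carriers on the log2(FPKM + 1) scale, with KO-labelled mice in red and WT-labelled mice in blue, bars of 1 SE and filled points for adjusted p under 0.05. Slc25a13 at 1.95 and 2.29 and Slc25a23 at -1.81 and -1.99 are the ends of the range, and Slc25a10 is filled in WT-labelled mice at 1.84 and open in KO-labelled mice at 0.23.

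Set against WT-labelled mice of the same diet, KO-labelled mice had no carrier past the threshold. On HFD 0 of 37 were called, and 0.0316% of all tested genes were called (0.0237% higher and 0.00789% lower). At an unadjusted p under 0.05 there was 1 carrier, and the share of all genes at that looser threshold was not computed. The smallest p was that of Slc25a5, whose HFD KO libraries, listed above, lay below every HFD WT library (log2 difference -0.35, SE 0.13, adjusted p = 0.348). Next was Slc25a17 (log2 difference -0.23, SE 0.14, adjusted p = 0.498), and its HFD groups overlapped. Only Slc25a5 had HFD groups without overlap, 1 of 37, while 6.83% of all genes did.

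On chow 0 of 37 carriers were called, with 1.41% of all genes called (0.426% higher and 0.979% lower). An unadjusted p under 0.05 was seen for 4 carriers, a threshold at which the share of all genes was not computed. Slc25a10 averaged 34.4 ± 7.44 FPKM in chow KO libraries and 12.99 ± 1.57 in chow WT libraries (SD, n = 4 each), and every chow KO library was above every chow WT library (log2 difference 1.32, SE 0.33, adjusted p = 0.0697). With the chow groups fitted alone, Slc25a10 had SE 0.16 and adjusted p = 0.00436 and Slc25a35 had adjusted p = 0.0486, so 2 carriers were called there. The share of all genes called in that fit was not computed, and the 1.41% belongs to the fit of all libraries. Slc25a37 averaged 3.89 ± 0.52 FPKM in chow KO libraries and 6.41 ± 1.87 in chow WT libraries, again without overlap (log2 difference -0.57, SE 0.22, adjusted p = 0.251). The chow groups did not overlap for 9 of 37 carriers and for 15.2% of all genes. Skeletal muscle markers summed to 3.02 to 28.9 FPKM in chow KO libraries and 106 to 264 in chow WT libraries. Slc25a4, the ADP/ATP carrier of muscle, averaged 166 ± 30.3 and 169 ± 10.5 FPKM there. The part of muscle RNA in the Slc25a4 level was not tested.

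Whether the diet difference itself differed between the labels was tested as an interaction. It was called for 0 of 37 carriers, with 0.292% of all genes called (0.253% higher and 0.0395% lower). At an unadjusted p under 0.05 there were 6 carriers, again with no share of all genes computed. The smallest p values of the interaction were those of Slc25a10 (log2 difference -1.61, SE 0.47, adjusted p = 0.217) and Slc25a5 (log2 difference -0.46, SE 0.18, adjusted p = 0.355). A carrier that passed the threshold in a single label, such as Slc25a3, Slc25a5, Slc25a37 or Slc25a10, was therefore not shown to respond differently to the diet in the other label.

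Genes around the carriers were read from the same fit, and bracketed values with no name are log2 differences, HFD minus chow, with KO-labelled mice before WT-labelled mice. The count of every list below stands against 23.5% of all tested genes higher and 15.3% lower in KO-labelled mice. In WT-labelled mice these shares were 24.6% and 17.2%. Among family members with other symbols, Ucp2, an uncoupling protein relative found in immune cells among others, was at 723, 652, 686 and 346 FPKM in HFD KO libraries, against 121, 250.1, 98.5 and 99.8 in chow KO libraries. It was at 458, 804, 801 and 577 FPKM in HFD WT libraries, against 199, 163, 194 and 177 in chow WT libraries. All HFD values were above all chow values. Ucp2 rose in KO-labelled mice (log2 difference 2.13, SE 0.30, adjusted p = 0.000192) and in WT-labelled mice (log2 difference 1.81, SE 0.30, adjusted p = 0.0004). Of the 4 tested relatives Mtch2 also fell in KO-labelled mice (log2 difference -0.92, SE 0.20, adjusted p = 0.00257) and Ucp3 in WT-labelled mice (log2 difference -1.78, SE 0.42, adjusted p = 0.00366), which makes 1 higher and 1 lower in each label. Ucp3 is an uncoupling protein relative of skeletal muscle, and the muscle marker sums given with Slc25a4 were lower in every HFD WT than in every chow WT library, with Acta1, the only 1 of the 6 markers tested, called lower. Their part in the Ucp3 difference was not tested. The brown fat uncoupling protein Ucp1 was under the filter and reached 67.2 FPKM in HFD KO replicate 2.

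The machinery that inserts carriers into the inner membrane counted 0 higher and 2 lower of 13 on HFD in KO-labelled mice, and 5 higher and 0 lower in WT-labelled mice. Of all genes 23.5% were higher and 15.3% lower in KO-labelled mice, and 24.6% and 17.2% in WT-labelled mice. The small intermembrane-space chaperones Timm8b (-0.85) and Timm9 (-0.52) fell in KO-labelled mice (adjusted p = 0.00295 and 0.0139). In WT-labelled mice Timm10 (1.14), Timm8a1 (1.14) and the import receptor Tomm70a (0.39) rose (adjusted p = 9.44e-05, 0.00011 and 0.00236). Timm8a1 was at 9.5, 10.03, 9.84 and 7.55 FPKM in HFD KO libraries, against 11.2, 9.75, 7.87 and 8.4 in chow KO libraries. It was at 12.7, 17.3, 10.2 and 16.2 FPKM in HFD WT libraries, against 5.54, 5.68, 6.61 and 5.09 in chow WT libraries. The chow WT libraries were the lowest, and Timm8a1 passed the interaction test (log2 difference -1.15, SE 0.22, adjusted p = 0.0414).

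Other routes for solutes into mitochondria counted 3 higher and 7 lower of 17 in KO-labelled mice, and 5 higher and 2 lower in WT-labelled mice. The shares of all genes, higher and lower, were 23.5% and 15.3% in KO-labelled mice and 24.6% and 17.2% in WT-labelled mice. The serine transporter Sfxn1 was at 18.6, 27.2, 16.9 and 20.9 FPKM in HFD KO libraries, against 118, 84.7, 103 and 120.3 in chow KO libraries. It was at 22.4, 19.6, 20.03 and 26.3 FPKM in HFD WT libraries, against 94.8, 88.7, 99.4 and 103 in chow WT libraries. The groups lay far apart in both labels. Sfxn1 fell in KO-labelled mice (log2 difference -2.30, SE 0.15, adjusted p = 6.54e-07) and in WT-labelled mice (log2 difference -2.09, SE 0.15, adjusted p = 1.24e-06), while its relative Sfxn3 rose by 1.31 and 1.01 on the log2 scale (adjusted p = 0.00195 and 0.00784). The calcium uniporter Mcu rose in KO-labelled mice (log2 difference 0.80, SE 0.17, adjusted p = 0.00238).

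Enzymes that use what the carriers move were counted too, beside the same shares of all genes. These were 23.5% higher and 15.3% lower in KO-labelled mice, and 24.6% and 17.2% in WT-labelled mice. Of 6 genes of the citrate shuttle and lipogenesis, 0 were higher and 5 lower on HFD in KO-labelled mice and 0 and 1 in WT-labelled mice, with Acaca, which makes malonyl-CoA, lower in both (-2.78 and -1.65, adjusted p = 0.00166 and 0.0263). Acly, which splits exported citrate and was picked out after its values were seen, was at 67.1, 147, 373 and 221 FPKM in chow KO libraries and 47.2, 41.3, 46.2 and 41.4 in chow WT libraries, and the chow groups differed (log2 difference 1.92, SE 0.36, adjusted p = 0.0166). Of 5 shuttle enzymes 1 was higher and 2 lower in KO-labelled mice and 1 and 1 in WT-labelled mice, the glycerol phosphate dehydrogenase Gpd2 falling in both (-1.56 and -0.69, adjusted p = 0.00019 and 0.0208). Of 8 carnitine shuttle and oxidation genes 2 were higher and 2 lower in KO-labelled mice and 1 and 1 in WT-labelled mice, with Cpt1a higher in both (1.30 and 1.41, adjusted p = 0.00461 and 0.00228).

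Of 8 enzymes of branched-chain amino acid breakdown, 0 were higher and 7 lower in each label, the phosphatase Ppm1k among them (-1.38 and -1.90, adjusted p = 0.000679 and 5.19e-05). Of 15 ATP synthase genes 0 were higher and 9 lower in KO-labelled mice, and 1 higher and 5 lower in WT-labelled mice, with Atp5g3 leading in KO-labelled mice (log2 difference -1.18, SE 0.17, adjusted p = 0.00021) and Atp5c1 in WT-labelled mice (log2 difference -0.76, SE 0.17, adjusted p = 0.00315). Of 8 regulators of mitochondrial biogenesis 1 was higher and 4 lower in KO-labelled mice, and 2 higher and 1 lower in WT-labelled mice. There the coactivator Pprc1 rose in both labels (0.79 and 0.87, adjusted p = 0.00177 and 0.000735) and the transcription factor Tfb2m fell in both (-0.63 and -0.75, adjusted p = 0.00402 and 0.00114).

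The HFD libraries of each label spread widely in their macrophage and adipocyte marker sums, and several carriers ran along with them. Over the 8 HFD libraries Slc25a24 followed the macrophage sum with Pearson r = 0.95, with the sum on a log2 scale and the carrier as log2(FPKM + 1) (exact permutation p = 0.00186, adjusted 0.0172), Spearman rho = 0.79 (adjusted p = 0.0713) and r = 0.84 without the 2 libraries farthest from the median of the log2 sum (HFD WT replicate 1 and HFD KO replicate 4). For Slc25a43 r was 0.92 (exact permutation p = 0.00131, adjusted 0.0139), rho was 0.90 (adjusted p = 0.0307) and r without those 2 libraries was 0.90. Slc25a43 passed the filter only through these HFD libraries, where its level went down to 0.56 FPKM, so its relation is given as a description. For Slc25a45 r was 0.96 (exact permutation p = 0.000347, adjusted 0.00856), rho was 0.95 (adjusted p = 0.0236) and r without them was 0.81. These 3 carriers were high where macrophage markers were high.

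Slc25a10 followed the adipocyte sum with r = 0.96 (exact permutation p = 0.000174, adjusted 0.00642), rho = 0.98 (adjusted p = 0.0236) and r = 0.93 without the 2 libraries farthest from the median of the log2 adipocyte sum (HFD WT replicate 1 and HFD KO replicate 1). Slc25a16 ran against the macrophage sum with r = -0.92 (exact permutation p = 0.000645, adjusted 0.00954), rho = -0.93 (adjusted p = 0.0236) and r = -0.89 without the 2 libraries farthest on that sum. In all 74 relations of 37 carriers with the 2 sums were computed, of which 29 passed an adjusted p of 0.05 for Pearson's r. They were not computed for other genes, so this count cannot be set against the share of all genes and is no trait of the carriers. The sums themselves ran against each other (r = -0.91), so a relation with either cannot be told apart from a relation with the other. Each label alone has 4 HFD libraries, too few for a coefficient, and these relations were chosen after the values were seen.

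**Figure D5:**
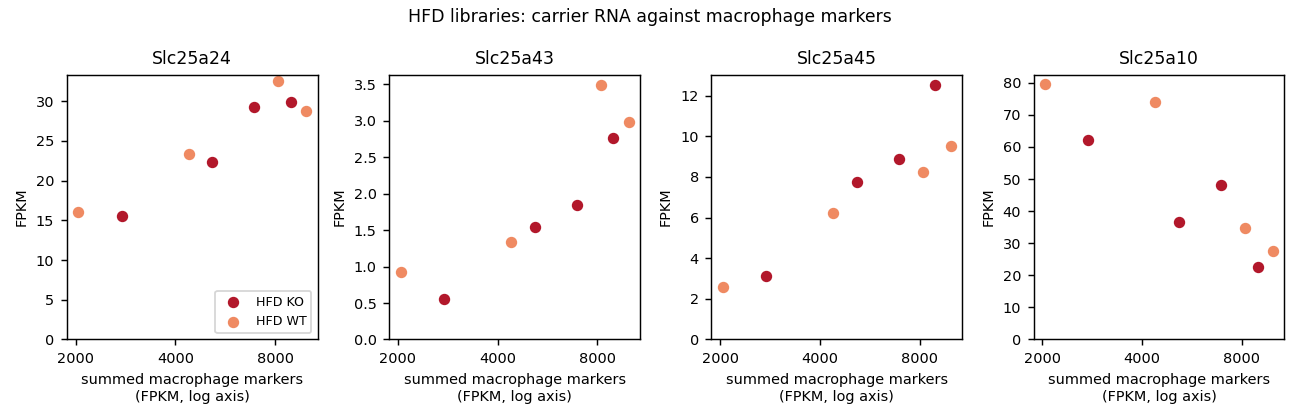
FPKM of 4 carriers against the summed FPKM of 10 macrophage markers (log axis) in the 8 HFD libraries, HFD KO in dark red and HFD WT in orange. Slc25a24, Slc25a43 and Slc25a45 are high where the marker sum is high, and Slc25a10 is low there, with libraries of both labels along the same course.

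Start-site windows were available for 36 of the 47 carriers, with 46 windows, against 32851 windows of 300 bases in the whole table. CCAAT on either strand was in the first window of 17 of 36 carriers (47.2%) and in 37.4% of all windows. Among carriers lower on HFD in both labels it was in 4 of the 5 with a window, and among those higher in both in 1 of 4. Slc25a13 and Slc25a43, 2 of those higher in both, reached the filter through HFD libraries alone. Of carriers called in neither label 6 of 12 had it. In KO-labelled mice alone it was in 2 of 5 lower and 0 of 1 higher, and in WT-labelled mice alone in 1 of 1 each. No difference between these groups was tested. The E-box CACGTG was in 6 of 36 carriers (16.7%) and 7.15% of all windows, and the nuclear receptor motif AGGTCA in 4 of 36 (11.1%) and 16.3%. The NRF1 palindrome, CCGGAAGTG, GAGGAAGT and TCACCCCAC, searched on both strands, were in 0 of 36 carriers and in 0.971%, 2.03%, 3.2% and 0.551% of all windows. A match describes the window alone.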

How the data were processed

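Total RNA of mouse epididymal fat was isolated with TRIzol and read from both ends on a BGI sequencer, per the labels' protocols. Alignment used STAR 2.7 with builds GRCm38.p6 and mm10 named, per the submitters' processing notes. Neither source names the counting tool, the annotation or the strand setting. The authors deposited 1 table of FPKM values per gene and library, which holds no read counts, so absolute depth is unknown. Its 14408 circular RNA entries were kept out of all fits and used for relative depth alone.

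For the 20101 genes with Entrez numbers, log2(FPKM + 1) was fitted with limma 3.58.1 in R 4.3.3 over all 16 libraries at once, with a group mean for each of 4 groups, an expression trend in the prior variance and no replicate block. Genes needed at least 1 FPKM in at least 4 libraries, which 12667 did. Of 5 comparisons each was adjusted over all tested genes by the Benjamini-Hochberg method, with 0.05 as the threshold. Differences are on the log2(FPKM + 1) scale. The fit was tested on simulated data first.

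Values in every library are given for 14 carriers picked by function, for up to 6 called carriers with the largest fall and 6 with the largest rise per diet comparison whose groups did not overlap, and for the 2 with the smallest p per genotype comparison and interaction. Up to 3 called genes of a pathway list are named. The values of 1 tested carrier are not reported here, though it is part of all counts, sums and medians. Members, pathway and marker lists were chosen with earlier results of these data known, the paralog ratios after values were seen. Alternatives were other scalings, added constants and filters, a replicate block, fits of the compared groups alone, each library left out, and the libraries with epididymal RNA left out. Start-site windows are RefSeq sequences of GRCm38.p6, matched by Entrez number, and all 47 members were found among the RefSeq genes by that number.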

Additional observations from a re-analysis of the deposited data

Results flagged for a closer look

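Of 104 groups of 4 libraries examined for the named carriers, their ratios and their sum, 4 held a library set off from the other 3 by a gap that took up most of the range of the group (beyond Dixon's 95% critical value), and chance gives about 1 such group in 20. Slc25a12 was at 10.29 FPKM in chow KO replicate 2, with the other chow KO libraries between 3.28 and 4.23. In the same library Slc25a13 was at 6.12 FPKM, with the others between 0.45 and 0.85, and this was the library with the highest epididymal marker sum. Slc25a16 was at 16.09 FPKM in HFD KO replicate 4, with the others between 8.53 and 9.5, and that library had the next highest epididymal sum. The ratio of Slc25a12 to Slc25a13 was 12.9 in chow WT replicate 4, against 3.24 to 4.88 in the other chow WT libraries. Slc25a13 was at 0.39 FPKM in chow WT replicate 4, its lowest level of the 16 libraries.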

How the results depend on the processing

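The 13 carriers lower on HFD in KO-labelled mice became 7 with only the compared groups fitted, 20 without all 3 libraries with epididymal RNA and 2 where a change of at least 2-fold was asked. The 7 lower in WT-labelled mice became 2 at 2-fold, and the 0 called between labels on chow became 2 with the chow groups alone and 1 at an adjusted p under 0.1. In either direction 6 carriers per label were called at 2-fold, with 15.3% of all genes in KO-labelled and 16.3% in WT-labelled mice. Leaving out each library in turn gave 4 to 6 higher and 8 to 18 lower carriers in KO-labelled mice, 5 to 8 higher and 5 to 8 lower in WT-labelled mice, and 0 throughout between labels and for the interaction. With a replicate block the counts were 5 and 12 in KO-labelled mice and 6 and 7 in WT-labelled mice, and Slc25a3 (adjusted p = 0.0528) and Slc25a25 (adjusted p = 0.0521) lost their calls in KO-labelled mice. The share of all genes was not computed with a replicate block, a library left out, the compared groups alone or the looser threshold. A change in those counts cannot be told apart from a change over all genes. Replicate numbers were not taken as pairs, since over 24 pairs of same-numbered libraries the correlation of deviations ran from -0.63 to 0.37 and exceeded 0.1 in 8, and a library correlated best with its own number in 11 of 48 cases. Of 26 calls among named carriers 19 held in every fit and 20 without each single library. Signs turned only for differences that were not called. Slc25a11 in KO-labelled mice was -0.077 under median-of-ratios and -0.108 under quantile scaling, and -0.044 to 0.121 with a library left out. In WT-labelled mice Slc25a3 was -0.028 and -0.015 under these scalings and -0.016 to 0.093 with a library left out, and Slc25a37 was -0.035 and -0.102, and -0.125 to 0.137. Slc25a25 in WT-labelled mice was -0.377 to 0.021 with a library left out. Quantile scaling moved the median of all genes by -0.15 in KO-labelled and -0.10 in WT-labelled mice, where the median of the carriers was -0.60 and -0.22. The cause of these shifts was not tested. Absolute depth per library could not be read from FPKM, so levels under about 1 FPKM, such as those of Slc25a43 on chow, carry unknown counting error.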
